A study of Mus musculus with 6 samples.

Results

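Lpin1, Lpin2 and Lpin3 encode the lipins, the soluble phosphatidate phosphatases of mammals. They were measured by all probe sets that the array's annotation assigns to 1 of these genes and to no other. These were 7 of the 45101 probe sets of the array, 2 for Lpin1 (Entrez gene 14245), 4 for Lpin2 (64898) and 1 for Lpin3 (64899). Gene expression was measured by Affymetrix array in frozen livers of 6 male mice, 3 wild type (WT) and 3 with a liver knockout of ChREBP (ChLO). ChREBP, the product of Mlxipl (also written Chrebp), is a transcription factor that responds to carbohydrate. ChLO mice joined floxed Chrebp alleles with a Cre transgene that the albumin promoter drives in hepatocytes. Whether other liver cells kept the gene cannot be read from whole liver. The labels call the controls wild type and do not say whether they carried a floxed allele or Cre. Both groups were 12 weeks old and ate a diet with 60% sucrose for 1 week, so no group on another diet was compared. Each array held 1 mouse, and the labels call the arrays biological replicates.

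Lipins remove the phosphate of phosphatidic acid and leave diacylglycerol, the substrate for triglyceride, phosphatidylcholine and phosphatidylethanolamine. They work at the endoplasmic reticulum when dephosphorylated, and the kinase complex mTORC1 keeps lipin 1 in the cytosol by phosphorylating it. In the nucleus of hepatocytes lipin 1 also acts as a coactivator with PGC-1 alpha and PPAR alpha on genes of fatty acid oxidation. Fasting, glucocorticoids and cAMP are known to raise Lpin1 in liver, and mice without lipin 1 have a fatty liver early in life and lack normal fat tissue.

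The values are log2 MAS5 signals, a summary of each probe set on 1 array at a time, and 1 log2 unit is a factor of 2 (linear scale). Signals of different probe sets depend on their probes, so levels are compared between arrays and not between genes. Arrays were alike in median log2 signal (6.38 to 6.60), and correlations between arrays over 12598 genes lay between 0.894 and 0.954. With 3 arrays a group, the number of arrays limits the precision of every difference. All 7 lipin probe sets had a mean above the filter level, a log2 signal of 5.50, under which probe sets were not tested. Mlxipl itself read 12.61, 12.56 and 12.59 in WT 1 to 3 and 10.34, 11.22 and 11.48 in ChLO 1 to 3. The deleted gene was thus lower in every ChLO array than in any WT array, although not at background. Whether that probe set reads the deleted exons is not stated in the labels. In the marker sums of hepatocytes, stellate cells and fibroblasts, myeloid cells, endothelium and adipocytes, ChLO 1 and ChLO 2 stood apart from ChLO 3. The bile duct sums were 10.58, 9.52 and 8.47 in ChLO 1 to 3. For lymphocytes and skeletal muscle, ChLO 2 was the odd array of the group. The summed log2 signal of 6 stellate cell and fibroblast markers was 14.00 and 14.40 in ChLO 1 and 2 and 12.74 in ChLO 3, against 12.51 to 13.22 in WT. Hepatocyte markers, all 6 of them bright, summed to 17.85 to 18.22 in ChLO and 18.16 to 18.39 in WT, so the tissue read as liver in both groups. All 6 had a lower mean in ChLO, with a median difference of -0.29. Of these, 2 did not overlap between groups and 0 had an unadjusted p under 0.05. Of all 12598 genes tested, 5477 were lower in ChLO. On the lower side, 6.19% of all genes did not overlap and 3.50% had an unadjusted p under 0.05. The part of cell makeup in the Lpin1 difference was not tested.

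All 3 lipin genes have annotated start sites in RefSeq's table for GRCm38.p6, 6 start sites in total. The 250 bases before a start are shown for Lpin1 and for the first start of Lpin2 because the deleted protein is a DNA-binding factor and the members of the family differed in signal. ChREBP works as a dimer with Mlx at paired E-box-like sites. Capitals mark the E-box CACGTG. The Lpin1 window lies at chr12:16610967-16611216 on the minus strand, and the Lpin2 window at chr17:71183282-71183531 on the plus strand.
Lpin1: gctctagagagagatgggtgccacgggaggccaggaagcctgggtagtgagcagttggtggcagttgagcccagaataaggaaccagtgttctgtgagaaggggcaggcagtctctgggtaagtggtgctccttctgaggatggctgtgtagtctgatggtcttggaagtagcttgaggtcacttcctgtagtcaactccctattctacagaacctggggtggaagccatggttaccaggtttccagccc
Lpin2: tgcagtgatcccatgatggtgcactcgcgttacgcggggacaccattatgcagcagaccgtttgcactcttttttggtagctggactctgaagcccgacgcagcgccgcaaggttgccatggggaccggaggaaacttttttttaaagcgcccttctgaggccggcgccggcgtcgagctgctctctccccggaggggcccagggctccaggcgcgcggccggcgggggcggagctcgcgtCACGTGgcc
The Lpin1 window held no CACGTG, and the Lpin2 window held 1, beginning 9 bases before the start. None of the other Lpin2 windows or the Lpin3 windows held CACGTG. Lpin1 has 1 annotated start site here, and whether liver uses it was not checked. Among 32851 windows of this length in the table, 6.02% held CACGTG. The carbohydrate response element, 2 E-box-like sites set 5 bases apart that can overlap CACGTG, was searched on both strands by its published consensus. It was found in 0.0974% of all windows and in 0 of the 6 lipin windows. Of the other motifs searched on both strands, GGGCGG lay in 1 window of Lpin3 and in 2 of Lpin2, and CCAAT lay 3 times in the third window of Lpin2. Over all windows their shares were 32.7% and 33.8%. TCACNCCAC, a sterol response element (1.05% of all windows), and the glucocorticoid response element (0.00913%) were in 0 of the 6. These are matches of letters in short windows and show neither binding nor its absence.

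Lpin1 was far lower in ChLO livers than in WT livers, and both of its probe sets showed it. Probe set 1426516_a_at read 13.49, 13.86 and 13.95 in WT 1, 2 and 3 and 11.71, 10.91 and 10.88 in ChLO 1, 2 and 3. Probe set 1418288_at read 12.92, 13.24 and 13.35 in WT and 10.98, 9.998 and 10.19 in ChLO. The groups did not overlap on either probe set, and the gap between the lowest WT array and the highest ChLO array was 1.78 and 1.94 log2 units. In linear signal, 1426516_a_at went from 11507 to 15814 over the WT arrays to 1882 to 3356 over the ChLO arrays.

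**Figure D1:**
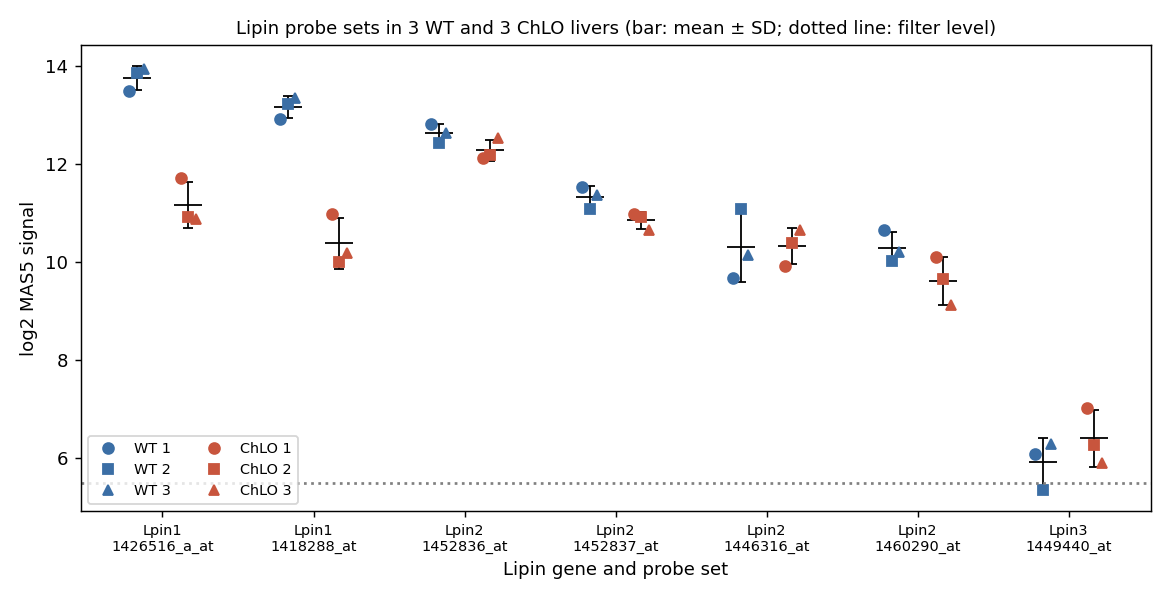
Log2 MAS5 signal (vertical axis) of the 7 lipin probe sets (horizontal axis) in each of 3 WT and 3 ChLO livers, with the mean and SD of each group and the filter level of 5.50 as a dotted line. Both Lpin1 probe sets separate the groups, with gaps of 1.78 and 1.94 log2 units, while the groups meet or nearly meet on the Lpin2 and Lpin3 probe sets.

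On average 1426516_a_at read 13.77 ± 0.24 in WT livers and 11.17 ± 0.47 in ChLO livers (SD over n = 3 each), a difference of -2.60 (SE 0.26, 95% confidence interval -3.19 to -2.005). The other probe set, 1418288_at, differed by -2.78 (SE 0.27, interval -3.40 to -2.16). Lpin1 signal was thus 6.05-fold and 6.86-fold lower, or 16.5% and 14.6% of the WT level. Fitted with limma over 27022 probe sets, both fell with an adjusted p of 0.0415. They had the 2 smallest limma p-values of all probe sets fitted (6.98e-06 and 6.03e-06). In that fit 0.0259% of all probe sets were called lower, which is 7 probe sets including these 2. By size of the decrease they stood at places 44 and 39, so other probe sets fell more but had larger p-values.

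When each gene was represented by 1 probe set, Lpin1 again had the smallest p of 12598 genes (9.40e-06), but its limma adjusted p was 0.0528, just above the threshold of 0.05. In that fit limma called 0% of genes at an adjusted p under 0.05, with 1129 genes at an unadjusted p under 0.05. Whether Lpin1 is called therefore depends on the unit of the fit, while its difference of -2.60 is the same. Groups separated with all ChLO arrays lower for 6.54% of probe sets. Both Lpin1 probe sets were also no longer called with spike-in scaling, with eBayes without a trend, and without WT 1, WT 2, WT 3 or ChLO 2, where the difference of 1426516_a_at still lay between -2.74 and -2.35 (adjusted p from 0.0783 to 0.299). In these bulk samples, less Lpin1 RNA per hepatocyte and fewer cells that express it cannot be told apart.

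**Figure D2:**
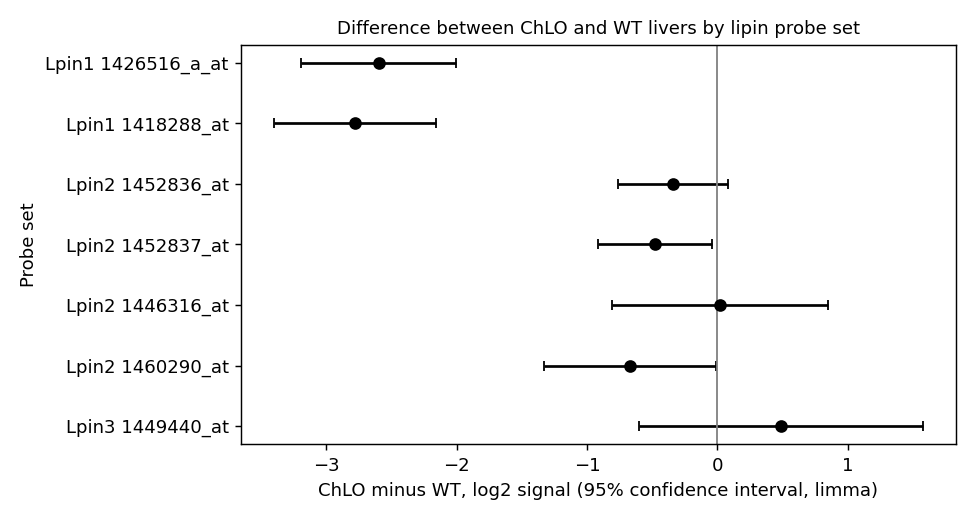
Difference of ChLO minus WT in log2 signal (horizontal axis), with limma's 95% confidence interval, for each lipin probe set (vertical axis). The 2 Lpin1 probe sets lie at -2.60 and -2.78, and the 5 others between -0.67 and 0.49.

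The 3 ChLO livers were not equal in Lpin1. From the WT mean, 1426516_a_at was lower by a log2 difference of -2.05 in ChLO 1, -2.85 in ChLO 2 and -2.89 in ChLO 3. For 1418288_at these differences were -2.19, -3.17 and -2.98. ChLO 1 thus kept the most Lpin1 signal on both probe sets, and it was also the array with the least Mlxipl (10.34). Without ChLO 3 the difference was -2.45 with an adjusted p of 0.0134 in limma's gene fit, and without ChLO 1 it was -2.87 with an adjusted p of 0.00515. As a measure of RNA integrity, the 3′ probe set of Actb exceeded the 5′ one by 1.13 to 1.38 in WT and 0.84, 1.03 and 1.46 log2 units in ChLO 1, 2 and 3.

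The 2 Lpin1 probe sets followed each other closely. Within an array 1426516_a_at exceeded 1418288_at by 0.57 to 0.62 log2 units in WT and by 0.69 to 0.92 in ChLO. The suffix _a in the first name means that its probes match several transcripts of the same gene, and the array data do not separate the lipin 1 alpha and beta splice forms. Pklr, liver pyruvate kinase and a textbook ChREBP target, read 12.30, 12.97 and 11.55 in WT and 9.29, 7.82 and 8.79 in ChLO. Its difference of -3.64 (SE 0.45) was larger than that of Lpin1, and its limma adjusted p was 0.0892.

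Lpin2, which encodes a second phosphatidate phosphatase that is abundant in liver, differed far less. Its brightest probe set, 1452836_at, read 12.82, 12.44 and 12.63 in WT and 12.14, 12.20 and 12.53 in ChLO. In ChLO 1 and ChLO 2 it was lower than in all WT livers, and ChLO 3 lay among them. The means were 12.63 ± 0.19 (SD, n = 3) and 12.29 ± 0.21 (SD, n = 3), and the difference was -0.34 (SE 0.18, interval -0.77 to 0.08) with a limma adjusted p of 0.615 in the gene fit.

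The other probe sets of Lpin2 gave unlike pictures. On 1452837_at the signals were 11.54, 11.09 and 11.38 in WT and 10.99, 10.93 and 10.67 in ChLO. All ChLO arrays were lower there, as for 6.54% of all probe sets, but the gap to the lowest WT array was only 0.10. In all, 3 of the 7 lipin probe sets separated the groups, and 2 of these belong to Lpin1. The difference on 1452837_at was -0.48 (SE 0.19, interval -0.91 to -0.041), with a limma adjusted p of 0.602. On 1460290_at, WT arrays read 10.65, 10.03 and 10.20 and ChLO arrays read 10.10, 9.66 and 9.12. That is a difference of -0.67 (SE 0.29, interval -1.33 to -0.0086) with a limma adjusted p of 0.619, and ChLO 1 overlapped the WT arrays. Both had an unadjusted p under 0.05 (0.0356 and 0.0477), as had 3.61% of all probe sets on the lower side.

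Probe set 1446316_at of Lpin2 did not follow the others. It read 9.69, 11.09 and 10.15 in WT and 9.93, 10.39 and 10.66 in ChLO, a difference of 0.02 (SE 0.36), and its WT arrays spread over more than 1 log2 unit. Within an array it lay 1.35 to 3.13 units below 1452836_at, whereas 1452837_at lay 1.15 to 1.87 units below. In ChLO 3, 1452836_at was only 0.10 below its WT mean, while 1452837_at was 0.67 and 1460290_at was 1.17 below theirs. The array with the smallest decrease on one probe set thus had the largest on both others.

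Lpin3, the third phosphatidate phosphatase, gave a dim signal with its single probe set, 1449440_at. It read 6.10, 5.35 and 6.30 in WT and 7.03, 6.28 and 5.91 in ChLO, so WT 2 lay below the filter level and ChLO 1 was the highest array. The means were 5.92 ± 0.50 (SD, n = 3) and 6.40 ± 0.57 (SD, n = 3). The difference was 0.49 (SE 0.49, interval -0.64 to 1.61), with a limma adjusted p of 0.760 in the gene fit. ChLO 2 and ChLO 3 lay inside the WT range, and without ChLO 1 the difference was 0.17.

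Lpin1 and Lpin2 were compared directly within each array. The log2 ratio of the Lpin1 to the Lpin2 probe set that stood for its gene was 0.67, 1.42 and 1.32 in WT and -0.42, -1.28 and -1.66 in ChLO. Every ChLO array was below every WT array. The change of Lpin1 exceeded that of Lpin2 by -2.26 log2 units, with an exact two-sided permutation p of 0.10, the smallest that 3 against 3 arrays can give. A scale factor applied to a whole array cancels in this ratio. Lpin3 was not compared in this way.

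Genes on both sides of the lipin step and genes known to act on or with lipins were read in 8 lists of 90 genes, of which 84 had a probe set of their own and 80 were tested. Limma called 0 of the 80 at an adjusted p under 0.05 (smallest 0.379), where it called 0% of all genes. At an unadjusted p under 0.05 there were 9 lower and 4 higher, or 11.2% and 5% of the 80, against 3.50% and 5.46% of all genes tested. The lists were chosen with earlier results of these data known, so these shares are no test of the lists. Of the 80 differences 40 were lower and 40 higher, with a median of 0.0037. Over all 12598 genes tested 5477 were lower and 7121 higher, with a median of 0.06. The lowest of the 80 differences was that of Srebf1 at -1.19, and the highest that of Cyp4a14 at 1.73.

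**Figure D3:**
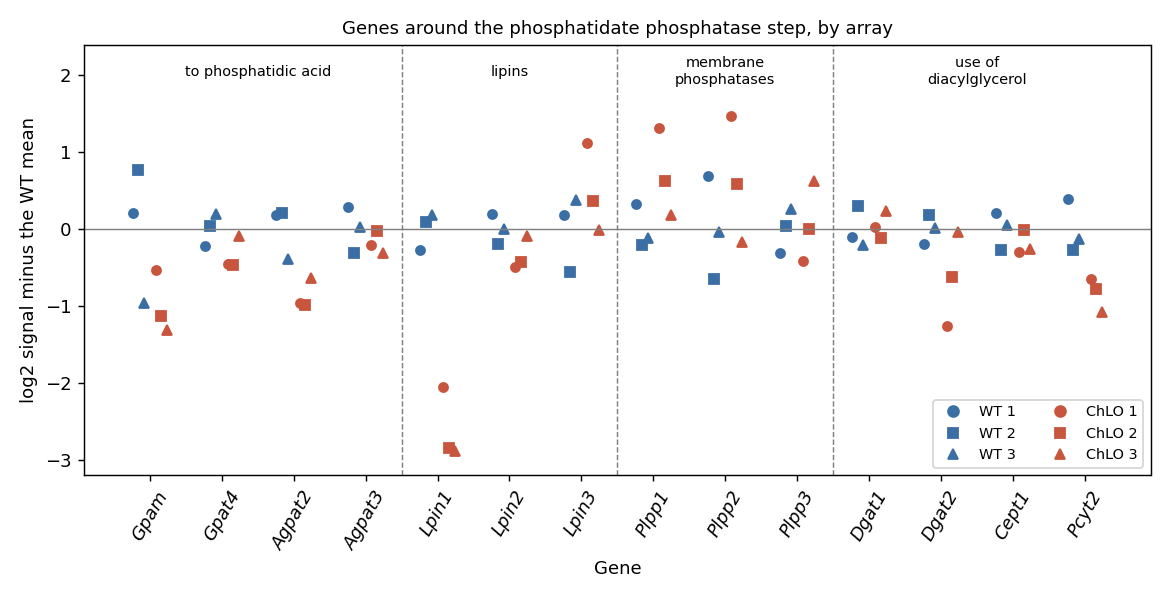
Log2 signal minus the WT mean (vertical axis) in each array for genes before, at and after the phosphatidate phosphatase step (horizontal axis, grouped by step). Lpin1 in ChLO lies between -2.89 and -2.05, lower than any other gene plotted.

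Upstream of the lipins, genes that build phosphatidic acid went both ways. Of 11 tested, 6 were lower and 5 higher, with a median of -0.04. At an unadjusted p under 0.05 there were 3 lower and 2 higher, against 3.50% and 5.46% of all genes tested. Gpam, the mitochondrial acyltransferase that begins glycerolipid synthesis, read 14.41, 14.96 and 13.23 in WT and 13.67, 13.07 and 12.88 in ChLO. Its difference was -0.99 (SE 0.43), and ChLO 1 overlapped the WT arrays. Agpat2, which adds the second acyl chain to give phosphatidic acid, read 13.08, 13.11 and 12.51 in WT and 11.93, 11.91 and 12.26 in ChLO, a difference of -0.86 (SE 0.21) with no overlap, as for 6.19% of all genes on the lower side. Agpat4, a related acyltransferase with a dim signal, differed the other way by 1.09 (SE 0.32) on its brightest probe set and by 0.11 on the other. Gpd1, which supplies glycerol 3-phosphate, and Gpat3, an acyltransferase of the endoplasmic reticulum, were named after their values were seen and differed by -1.07 (SE 0.34) and 0.99 (SE 0.29). Gpat4 and Agpat3 are acyltransferases of the same route. Gpat4 (-0.34, SE 0.20) and Agpat3 (-0.18, SE 0.20) overlapped between groups. The 4 probe sets of Agpat3 past the filter ran from -0.66 to -0.18.

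Membrane lipid phosphate phosphatases, which also dephosphorylate phosphatidic acid but act mainly on lipids outside the cell or in the lumen, had 5 of 5 tested members higher, with a median of 0.15. Plpp1 read 9.92, 9.38 and 9.47 in WT and 10.91, 10.22 and 9.78 in ChLO, a difference of 0.71 (SE 0.30). It was the 1 of 5 at an unadjusted p under 0.05, as were 5.46% of all genes on the higher side. Plpp2 differed by 0.63 (SE 0.46) and Plpp3 by 0.07 (SE 0.28). Within the ChLO group, Plpp1 and Plpp2 were highest in ChLO 1 and lowest in ChLO 3, while Plpp3 ran the other way, at 12.74, 13.15 and 13.77 in ChLO 1 to 3. The myeloid marker sums were 13.88, 13.81 and 13.05 in ChLO 1 to 3 and 13.15 to 13.24 in WT, with 5 of 6 markers higher in ChLO. The part of other cells in these differences was not tested.

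Downstream, 12 genes listed for the use of diacylglycerol, not all of which act on diacylglycerol itself, were split 6 and 6, with a median of -0.07. At an unadjusted p under 0.05 there were 3 lower and 0 higher, against 3.50% and 5.46% of all genes tested. Those 3 were Pcyt2, Pemt and Etnk1, whose enzymes act on other substrates. Dgat2, the main enzyme that turns diacylglycerol into triglyceride in liver, read 13.71, 14.09 and 13.93 in WT and 12.64, 13.29 and 13.87 in ChLO. ChLO 1 and ChLO 2 lay under all WT arrays and ChLO 3 inside their range, with a difference of -0.64 (SE 0.30). Dgat1, the other acyltransferase of this step, differed by 0.05 (SE 0.20), and a dimmer probe set of it by -0.34. Pcyt2, which makes the CDP-ethanolamine that is joined to diacylglycerol, read 13.20, 12.53 and 12.67 in WT and 12.15, 12.02 and 11.72 in ChLO, a difference of -0.84 (SE 0.22). Pemt, which methylates phosphatidylethanolamine to phosphatidylcholine, differed by -0.79 (SE 0.32). Etnk1, an ethanolamine kinase named after its values were seen, differed by -0.53 (SE 0.22). Cept1, which joins choline or ethanolamine to diacylglycerol, differed by -0.19 (SE 0.18).

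Of 13 genes for other sources and fates of phosphatidic acid, 3 were lower and 10 higher, with a median of 0.22. At an unadjusted p under 0.05 there were 0 lower and 1 higher, against 3.50% and 5.46% of all genes tested. Pld2 and Pld1, phospholipases that release phosphatidic acid from phosphatidylcholine, differed by 0.70 (SE 0.25) and 0.58 (SE 0.28), both with every ChLO array above every WT array, as for 9.04% of all genes. Cds2, which turns phosphatidic acid into CDP-diacylglycerol, differed by 0.19 (SE 0.19) on its brightest probe set, and 4 of its 6 probe sets past the filter had the other sign. Those 6 probe sets ran from -0.73 to 0.19. The partner gene of Cds2, Cds1, had no probe set above the filter level.

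Genes for enzymes that modify lipins differed by -0.24 to 0.31 between the groups, on the probe sets that stood for them. Of 7 tested, 3 were lower and 4 higher, 0 had an unadjusted p under 0.05, and 0 separated the groups. Ctdnep1, the nuclear envelope phosphatase that dephosphorylates lipins, read 9.30, 9.15 and 9.10 in WT and 9.68, 9.47 and 9.06 in ChLO, a difference of 0.22 (SE 0.21). Its regulatory subunit Cnep1r1 differed by 0.19 (SE 0.16). Fbxw11, part of a ubiquitin ligase, differed by 0.24 (SE 0.18), with 1 of its 5 probe sets of the other sign. Those 5 probe sets ran from -0.28 to 0.85. Lipin activity depends on phosphorylation, which an RNA array does not measure.

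Among 14 genes for factors that act at lipin genes or bind lipin 1, 10 were lower and 4 higher, with a median of -0.20. At an unadjusted p under 0.05 there were 2 lower and 0 higher, against 3.50% and 5.46% of all genes tested. Srebf1, the lipogenic factor SREBP-1, read 13.17, 14.27 and 13.08 in WT and 12.52, 12.35 and 12.07 in ChLO, a difference of -1.19 (SE 0.32). Its groups did not overlap, as for 6.19% of all genes on the lower side. Ppargc1a, the gene for the coactivator PGC-1 alpha, read 9.62, 9.72 and 9.43 in WT and 8.23, 8.67 and 9.47 in ChLO. Its difference was -0.80 (SE 0.31), and ChLO 3 was within the WT range. Ppara, the nuclear receptor that lipin 1 joins, differed by -0.37 (SE 0.32), and Nr3c1, the glucocorticoid receptor, by -0.23 (SE 0.20), with 1 of its 6 probe sets of the other sign.

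Glucocorticoid-induced genes were lower in 5 and higher in 3 of 8, with a median of -0.14. Fkbp5, a standard readout of the glucocorticoid receptor, read 10.93, 10.64 and 10.98 in WT and 10.94, 10.49 and 10.93 in ChLO, a difference of -0.06 (SE 0.19). Zbtb16, a transcription factor, differed by -0.63 (SE 0.24), and Dusp1, a phosphatase of MAP kinases, by 0.59 (SE 0.29). Of 10 fatty acid oxidation genes under PPAR alpha and PGC-1 alpha, 7 were lower and 3 higher, with a median of -0.07 and 0 at an unadjusted p under 0.05. Cpt1a, which admits long-chain fatty acids to mitochondria, read 12.86, 12.87 and 13.55 in WT and 11.89, 13.35 and 13.67 in ChLO, a difference of -0.13 (SE 0.45), and 1 of its 3 probe sets past the filter had the other sign (0.42). Acadm, an acyl-CoA dehydrogenase, differed by 0.16 (SE 0.19), Acadvl, its counterpart for very long chains, by -0.24 (SE 0.24), Pdk4, a pyruvate dehydrogenase kinase, by 0.50 (SE 0.74) and Cyp4a14, a fatty acid hydroxylase, by 1.73 (SE 1.05). The groups overlapped for all 10, and WT arrays of Cyp4a14 ran from 9.93 to 13.60.

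The genes most like each lipin over the 6 arrays were found by the root mean square distance between log2 signals, each less its own mean. For Lpin1, whose signal had a root mean square spread of 1.33, they were Arsg at a distance of 0.33, Mpp4 at 0.49, Orc1 at 0.49, Thrsp at 0.52 and Nptx1 at 0.54. Arsg, a lysosomal sulfatase, read 9.35, 10.22 and 10.11 in WT and 8.34, 7.39 and 7.78 in ChLO, so it too was highest in ChLO 1 within that group. Thrsp, a lipogenic protein also called Spot 14, read 15.47, 15.67 and 14.76 in WT and 13.05, 11.55 and 12.73 in ChLO. For Lpin2 the nearest were Hpn, a membrane protease of hepatocytes, at 0.03, then Skiv2l, Lmf1, Pex6 and Tbc1d16 at up to 0.07. For Lpin3 they were 2410006H16Rik at 0.08, Kif22, Mettl4, Myef2 and Qars at up to 0.13. These genes were chosen for likeness, so their differences are no separate result, and distances shrink with a gene's own spread (0.24 for Lpin2 and 0.50 for Lpin3).

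Fat and muscle also hold much lipin 1, so their markers were read in the same arrays. Of 5 adipocyte markers 3 had a probe set, and the defining genes Adipoq and Lep lay below the filter level in all but 1 array of Adipoq, at 5.56 in WT 3. Fabp4, which macrophages and endothelium express as well, made up most of their summed signal and itself read 9.64 to 10.30 in WT and 10.63 to 11.47 in ChLO. Of 5 skeletal muscle markers 2 passed the filter, and the sums were 7.66 to 8.10 in WT and 6.93 to 8.15 in ChLO. In ChLO 1, 2 and 3 the muscle sum was 7.17, 8.15 and 6.93. The part of fat or muscle in the Lpin1 difference was not tested.

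**Figure D4:**
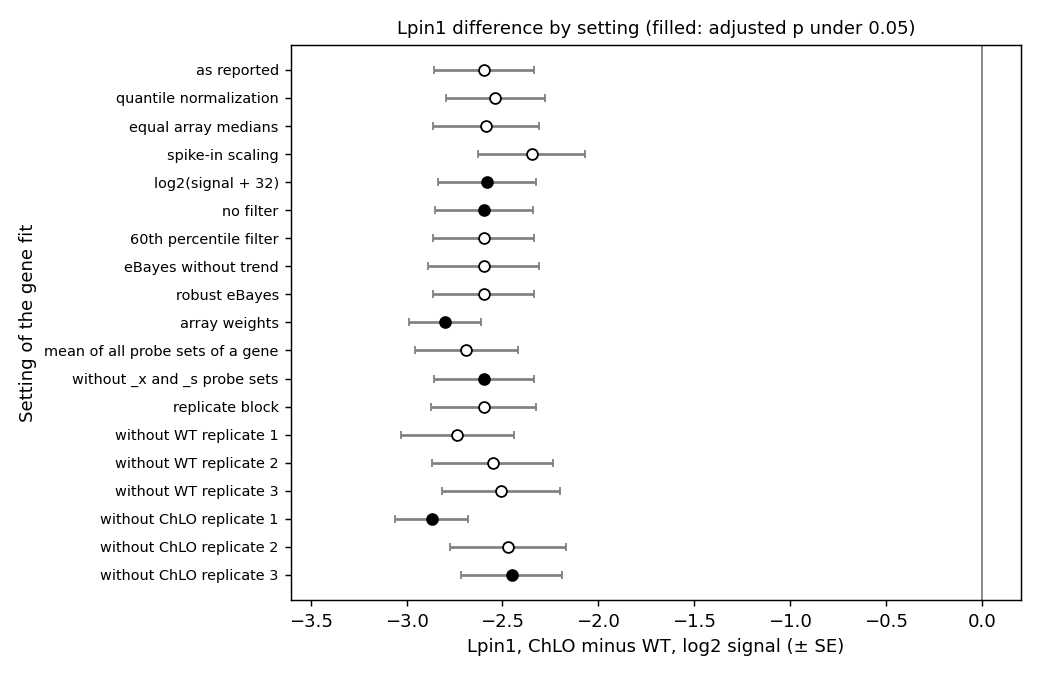
Lpin1 difference, ChLO minus WT in log2 signal with its SE (horizontal axis), in the gene fit as reported and under 18 alternative settings (vertical axis). Filled points have an adjusted p under 0.05. The value stays between -2.87 and -2.35, and 6 of the 18 alternatives bring the adjusted p under the threshold.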

How the data were processed

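RNA of 6 livers was run on Affymetrix arrays, per the labels' protocols. The authors deposited log2 signals made with MAS5, per the submitters' processing notes, which give no version or parameters. On the linear scale, each array's mean signal was 500 after trimming 2% of the values at each end, so a shift of most transcripts together is hidden. Probe sets were named from the platform's annotation: 34945 had 1 gene symbol, 932 several and 9160 none, beside 64 controls. Symbols were checked by Entrez identifier (99.4% found, 0 updated). Controls and probe sets with a mean under the 40th percentile (log2 signal 5.50) were left out, leaving 27022 probe sets and 12598 genes of 18193 named on the array, each gene by its brightest probe set.

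Differences were fitted with limma 3.58.1 in R 4.3.3 (lmFit, eBayes with a trend, no block), adjusted by Benjamini-Hochberg over all features, threshold 0.05, and tested on simulated data. The limma p-values set the difference between groups against the spread between mice of a group, which eBayes moderates over all features. The members and lists were chosen with earlier results of these data known. Named genes were the lipins, 25 fixed names, in each list the 2 genes of smallest p, and the 5 genes most like each lipin. List genes with no probe set of their own were not analysed here. Alternatives were other scalings, filters, variance models, probe set choices, the replicate block and leaving out each array. Promoter sequences are RefSeq's (GRCm38.p6). No source used here names a build for the probes.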

Additional observations from a re-analysis of the deposited data

How the results depend on the processing

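Lpin1 kept its direction under all 18 alternatives, with differences from -2.87 to -2.35 and limma adjusted p from 0.00151 to 0.322. In the gene fit it came under the threshold with log2(signal + 32), at -2.58 (adjusted p = 0.0486), and at an unchanged -2.60 with no filter (0.0375) and without _x and _s probe sets (0.0486). With array weights it was -2.80 (0.00151), although the iteration for the weights stopped before it reached its tolerance. Leaving out 1 array at a time gave -2.87 to -2.45. Lpin2 (-0.46 to -0.09) and Lpin3 (0.17 to 0.74) kept their direction and passed under none, and Lpin3 could not be tested with the 60th percentile filter. Spike-in scaling moved the median of all genes to 0.31, and Lpin2 to -0.09. The Lpin2 probe set 1446316_at changed sign with quantile normalization (-0.044), and ranged from -0.29 to 0.41 without 1 array, being -0.29, -0.06, -0.02 and -0.15 without WT 1, WT 3, ChLO 2 and ChLO 3.

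Calls over all genes numbered 7 with log2(signal + 32), 3 with no filter, 3 without _x and _s probe sets, 568 with array weights, 1 with the replicate block, and 0 to 302 without 1 array (4 without ChLO 1, 302 without ChLO 3). Of the 80 related genes, 5 had an unadjusted p under 0.01 in limma's gene fit. The largest of these, that of Gpat3 (0.0093), stood at place 260 of all 12598 genes. Without 1 array, 7 to 19 of the 80 had an unadjusted p under 0.05. The 19 came without ChLO 3, where 1013 of all 12598 genes were lower and 1562 higher at that threshold. The 7 came without WT 3 or without ChLO 2, with 357 and 351 genes lower and 437 and 349 higher. Same-numbered arrays did not all deviate together (correlations 0.30, -0.17 and 0.06). The labels do not say whether a number joins mice, and correlations over so few arrays cannot decide it. With the replicate block Lpin1 stayed at -2.60 (adjusted p = 0.0533) and no lipin changed its call.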
